A study of Mus musculus with 8 samples.

Results

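The regions described are intronic peaks of RNA-DNA hybrids with a predicted G-quadruplex (G4), divided by the strand of the gene that holds the guanine runs. They were the peaks of 4 deposited lists lying wholly inside a protein-coding gene shorter than 500 kb, overlapping no exon, more than 1 kb from any transcript start or gene end, and holding a predicted G4, defined as 4 runs of at least 3 guanines with loops of 1 to 7 bases on either strand. Of 344010 peaks in all, 6278 were members.

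A G4 is a folded form of DNA in which runs of guanine from one strand stack on each other, and an R-loop is an RNA paired with one DNA strand while the other strand is displaced. Within a gene, RNA pairs with the template strand, so guanine runs on the non-template strand lie on the strand that an R-loop displaces, whereas guanine runs on the template strand lie on the strand that is paired. RTEL1 is a DNA helicase known for unwinding G4s and telomeric loops, and RNaseH1 is a nuclease that degrades the RNA of RNA-DNA hybrids. The question addressed here was on which strand of the gene the predicted G4s of intronic hybrid peaks lie, and whether peaks with guanine runs on one or the other strand differed when Rtel1 was deleted or RNaseH1 was induced.

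Hybrids were mapped by DRIP-seq, in which hybrid-containing fragments of restriction-digested genomic DNA are captured with the S9.6 antibody and sequenced. All cells were mouse embryonic fibroblasts homozygous for a floxed Rtel1 allele (Rtel1F/F) that also carried an inducible wild-type RNaseH1-GFP transgene (WT RNH1-GFP), a human RNaseH1 fused to GFP selected with G418, and whether the line was 1 clone is not given in the sources used here. They were infected with Ad-GFP, which leaves Rtel1 in place, or with Ad-Cre, which carries Cre-GFP and deletes it, and after 48 h they either received no doxycycline (GFP mock and Cre mock) or received 2 µg/ml doxycycline for 48 h to induce RNaseH1 (GFP DOX and Cre DOX). One DRIP library was available per condition, each pooled from 3 parallel immunoprecipitations, and the 4 inputs were not analysed here. Conditions were therefore not tested against each other. Intervals are exact 95% Clopper-Pearson intervals unless another method is named, and cover counting error only.

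Members numbered 1627 of 87613 in GFP mock and 820 of 60219 in GFP DOX, and 1884 of 91097 in Cre mock and 1947 of 105081 in Cre DOX. They made up 7.18% (GFP DOX) to 10.6% (Cre DOX) of the intronic peaks chosen by the same rules on position. Between 6 and 24 members per list lay in genes of both directions and were given no strand.

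The lists differed in ways that touch every count. The median peak width was 295 bp in GFP mock and 351 bp in GFP DOX, and 343 bp for Cre mock and 513 for Cre DOX, with a narrowest peak of 106, 107, 132 and 213 bp, and wider peaks hold more sequence. A peak has no strand of its own, so strand here is that of the guanine runs relative to the gene, and bulk DRIP cannot tell fewer cells with a hybrid from less hybrid per cell. The peak lists check neither the deletion of Rtel1 nor the induction of RNaseH1. As a check of the cell type, 26, 25, 29 and 24 of 54 fibroblast matrix and adhesion genes had a peak within 1 kb of a transcript start in GFP cells (mock, DOX) and Cre cells (mock, DOX), in that order, against 14, 8, 13 and 6 of 52 blood and immune genes and 30.8%, 25.8%, 36.7% and 27.6% of all protein-coding genes. Of 55 neuronal genes 32, 28, 34 and 23 had such a peak, a larger part than of the fibroblast list in all but Cre DOX, so this check does not separate fibroblast from neuronal genes.

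The predicted G4s at the loci with high scores in all 4 lists are shown first, because they are the members on which every library had a strong peak. Each is printed 5′ to 3′ on the strand that holds the guanine runs, with those runs in capitals and with mm10 (GRCm38) coordinates of the motif. All lie in introns, and the sequence is that of the RefSeq copy of GRCm38.p6. Guanine runs on the non-template strand:
Mid1, chrX:169994118-169994151, plus strand: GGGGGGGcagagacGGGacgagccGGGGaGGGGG
Map2k6, chr11:110422262-110422282, plus strand: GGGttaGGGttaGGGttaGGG
Gm47283, chrY:90813109-90813132, plus strand: GGGttaGGGttaGGGttaGGGGGG
Cnga2, chrX:71995673-71995694, plus strand: GGGcGGGttGGGGagcagaGGG
Atg4a, chrX:141150793-141150817, plus strand: GGGGaGGGGcagaGGGGcagaaGGG

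Guanine runs on the template strand at loci of the same kind:
Cbr3, chr16:93686713-93686756, minus strand: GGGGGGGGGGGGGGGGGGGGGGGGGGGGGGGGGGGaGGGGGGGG
Il31ra, chr13:112578525-112578543, plus strand: GGGtGGGtaGGGGagtGGG
Lama1, chr17:67741362-67741382, minus strand: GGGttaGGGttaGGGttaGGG
Ppp1r9a, chr6:4924048-4924070, minus strand: GGGttaGGGttagaGGGttaGGG

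A locus with guanine runs on both strands, the non-template motif first:
Glipr1l1, chr10:112067267-112067285, plus strand: GGGagtGGGtGGGttGGGG
Glipr1l1, chr10:112067594-112067613, minus strand: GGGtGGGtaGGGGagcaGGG

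Most members held guanine runs on one strand only, and in every list the template strand held more of them than the non-template strand. GFP mock had 707 members with guanine runs only on the non-template strand, 857 only on the template strand and 39 with runs on both. GFP DOX had 379, 403 and 32, Cre mock had 824, 974 and 63, and Cre DOX had 791, 1051 and 82. The non-template share of single-strand members was 45.2% in GFP mock (42.7 to 47.7, n = 1564) and 48.5% in GFP DOX (44.9 to 52.0, n = 782), and 45.8% in Cre mock (43.5 to 48.2, n = 1798) and 42.9% in Cre DOX (40.7 to 45.2, n = 1842). GFP DOX had the highest share and Cre DOX the lowest.

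These shares have to be read against the sequence itself, because introns hold fewer predicted G4s on the non-template strand. The 669 Mb of intronic sequence that met the same rules on position and belonged to genes of 1 direction held 153572 predicted G4s, of which 66138 (43.1%, 42.8 to 43.3) lay on the non-template strand. Template motifs clustered more, and when motifs of one strand within 100 bp were counted once the non-template share was 45.1% (44.8 to 45.4, n = 116770). The latter is the closer comparison for peaks, each of which counts once whatever its number of motifs, and it lay within the interval of all 4 lists. Against the share of all motifs, 43.1%, the intervals of GFP DOX and Cre mock lay above and those of GFP mock and Cre DOX included it. Neither position above the sequence held under every setting. With G4Hunter, a score of guanine richness and skew, the share of the sequence was 48.0%, and the intervals of GFP DOX (49.8%, 47.6 to 52) and Cre mock (48.1%, 46.6 to 49.7) included it, while GFP mock (45.7%, 44.1 to 47.4) and Cre DOX (46.2%, 44.5 to 47.8) lay below. The interval of Cre mock also included the share of the sequence with equal numbers of peaks (41.5 to 47.4) and at a -log10 q of at least 2 (41.2 to 48.1), and that of GFP DOX at 5 kb from starts and ends (41.7 to 51.4, against 42.2%). With motifs that were mostly repeat-masked left out, the non-template share was 55.4% (49.8 to 60.8) in GFP mock and 54.8% (48.4 to 61.1) in GFP DOX, and 57.7% (52.8 to 62.4) in Cre mock and 51.5% (46.0 to 57) in Cre DOX, next to 51.8% of the remaining intronic motifs. Only the interval of Cre mock then lay above that of the sequence. Among members in the top decile of scores Cre mock had the lowest non-template share, 38.3% (31.3 to 45.7, n = 188). In intergenic peaks, where no gene gives a direction, 49.6% (Cre DOX) to 51.9% (GFP DOX) of single-strand peaks had their guanine runs on the plus strand.

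**Figure D1:**
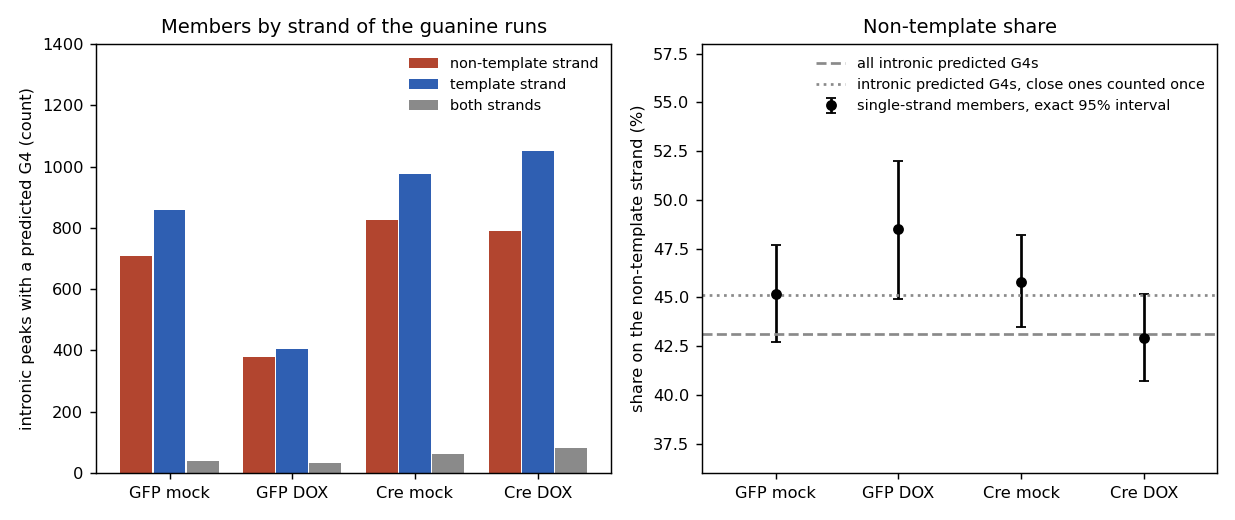
Left, number of intronic peaks with a predicted G4 in each list (vertical axis, count) by the strand of the guanine runs, with more template than non-template members in all 4 lists. Right, non-template share of the single-strand members (vertical axis, percent, not starting at 0) with exact 95% intervals; the dashed line is the share among all intronic predicted G4s (43.1%) and the dotted line the share with close ones counted once (45.1%), which runs through all 4 intervals.

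Counting motifs rather than peaks gave the share of all intronic predicted G4s that lay wholly inside a peak of any kind, including peaks that reached into an exon. Over both strands this share was 2.30% in GFP mock and 1.27% in GFP DOX, and 2.81% in Cre mock and 2.44% in Cre DOX. In GFP mock 2.29% of non-template and 2.31% of template motifs were inside peaks, a ratio of 0.991 (0.928 to 1.06). That value depended on the setting, at 1.12 (1.04 to 1.22) with close motifs counted once, 0.944 (0.895 to 0.995) with peaks of 500 bp and 0.806 (0.681 to 0.954) in the top decile of scores. In GFP DOX 1.48% of non-template against 1.11% of template motifs lay inside peaks, a ratio of 1.34 (1.23 to 1.46). In Cre mock the values were 3.05% and 2.62%, a ratio of 1.17 (1.10 to 1.24), and in Cre DOX 2.53% and 2.38%, a ratio of 1.06 (0.996 to 1.13). Intervals of ratios are Katz log intervals, and they are too narrow because motifs inside one peak were counted as separate. The ratios also depended on peak width: with every peak replaced by 500 bp around its midpoint they were 1.13 (1.04 to 1.22) in GFP DOX, 1.02 (0.966 to 1.08) in Cre mock and 0.972 (0.909 to 1.04) in Cre DOX. The interval of Cre DOX lay above 1 with loops of up to 12 bases (1.02 to 1.13), with G4Hunter (1.06 to 1.16), with equal numbers of peaks (1.02 to 1.21) and at a -log10 q of at least 2 (1.04 to 1.27).

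Predicted G4s near the transcript start were inside peaks more often than those far from it, on both strands. Peaks that reached inward from a promoter were counted here, and their part was not tested. Of motifs 1 to 5 kb from the nearest upstream start of their gene, 3.8% of non-template and 3.24% of template motifs were inside GFP mock peaks, against 1.61% and 1.82% of motifs over 50 kb away. In GFP DOX the same values were 3.38% and 2.61% near the start and 0.588% and 0.505% over 50 kb away, and in Cre mock 5.88% and 4.69% near and 1.65% and 1.53% far. In Cre DOX they were 4.33% and 4.17% near and 1.61% and 1.89% far. The ratio of non-template over template motifs in the bin nearest the start was 1.17 (1.03 to 1.34) in GFP mock and 1.30 (1.12 to 1.5) in GFP DOX, and 1.25 (1.13 to 1.39) in Cre mock and 1.04 (0.922 to 1.17) in Cre DOX. Over 50 kb away GFP DOX (1.16, 0.901 to 1.51) and Cre mock (1.08, 0.928 to 1.25) had ratios above 1 with intervals that included 1, GFP mock had 0.886 (0.766 to 1.02) and Cre DOX 0.854 (0.739 to 0.986). The ratios did not fall steadily with distance: between 5 and 20 kb GFP DOX had 1.48 (1.28 to 1.73), its highest, and Cre DOX 1.16 (1.04 to 1.3), with 0.942 (0.839 to 1.06) in GFP mock and 1.12 (1.01 to 1.24) in Cre mock. Between 20 and 50 kb the ratio was 0.966 (0.84 to 1.11) in GFP mock, 1.19 (0.963 to 1.48) in GFP DOX, 1.15 (1.01 to 1.31) in Cre mock and 1.13 (0.978 to 1.3) in Cre DOX.

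**Figure D2:**
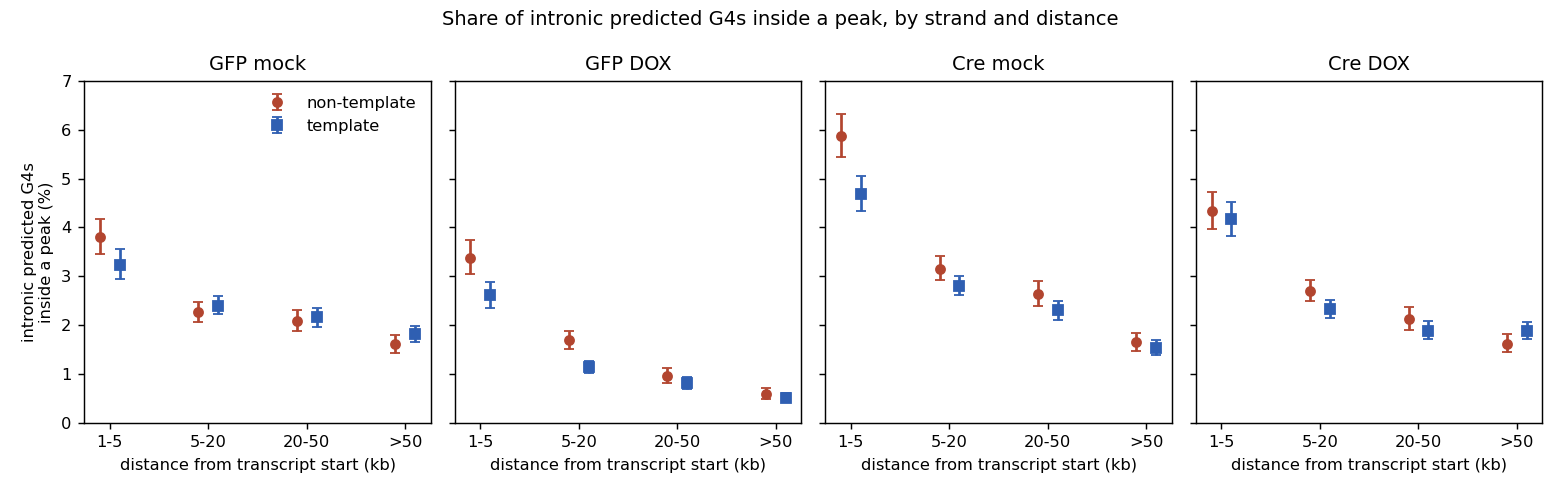
Share of intronic predicted G4s lying wholly inside a peak (vertical axis, percent) against distance from the nearest upstream transcript start of the gene (horizontal axis, kb), for the non-template strand (circles) and the template strand (squares), one panel per list, with exact 95% intervals. The share is lower over 50 kb away than within 5 kb on both strands in all 4 panels, for example 1.65% against 5.88% for non-template motifs of Cre mock.

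In genes that had a peak at the promoter (within 1 kb of a transcript start) in the same list, intronic motifs were inside peaks more often. The promoter peak and the peak holding the motif could be the same wide peak, which by itself raises these shares. How often this was so was not tested. In GFP DOX 3.27% of non-template and 2.24% of template motifs of such genes were inside peaks, a ratio of 1.46 (1.31 to 1.63), against 0.698% and 0.615% in genes with no promoter peak, a ratio of 1.13 (0.978 to 1.32). In Cre mock the values were 4.54% and 3.86% with and 1.89% and 1.64% without a promoter peak, with ratios of 1.18 (1.10 to 1.27) and 1.15 (1.04 to 1.27). In Cre DOX they were 4.21% and 3.69% with and 1.80% and 1.81% without, and in GFP mock 3.02% and 3.19% with and 1.79% and 1.71% without. The non-template share of single-strand members was nearly the same with and without a promoter peak, at 48.7% and 48.1% in GFP DOX and 45.8% and 45.9% in Cre mock.

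The lists also differed in the base composition of the motifs inside peaks. Motifs whose bases other than guanine were all adenine, such as repeats of GGGA, numbered 12683 on the non-template and 22338 on the template strand, and so made up part of the excess on the template strand. Of these purine-only motifs 3.77% were inside GFP mock peaks, 1.03% inside GFP DOX peaks, 3.6% inside Cre mock peaks and 2.01% inside Cre DOX peaks. Of motifs with other mixtures of bases, here called mixed and including those of guanine alone, the shares were 1.92%, 1.36%, 2.62% and 2.61%. Purine-only motifs were thus inside peaks more often than mixed ones in both mock lists and less often in both doxycycline lists. Among mixed motifs the ratio of non-template over template was 1.17 (1.07 to 1.27) in GFP mock and 1.41 (1.27 to 1.55) in GFP DOX, and 1.31 (1.22 to 1.41) in Cre mock and 1.08 (1.00 to 1.16) in Cre DOX. Among purine-only motifs it was 0.879 (0.785 to 0.983), 1.07 (0.865 to 1.32), 0.971 (0.867 to 1.09) and 0.892 (0.764 to 1.04).

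Motifs longer than 30 bases had a ratio above 1 in GFP mock (1.43, 1.10 to 1.85), GFP DOX (1.67, 1.19 to 2.34) and Cre mock (1.63, 1.27 to 2.10), while that in Cre DOX was 1.15 (0.886 to 1.49). Where motifs were mostly outside repeat-masked sequence, the non-template strand held 51.8% of them, and the ratio was 1.15 (0.993 to 1.34), 1.26 (1.08 to 1.47), 1.31 (1.16 to 1.47) and 1.10 (0.952 to 1.27) in GFP cells (mock, DOX) and Cre cells (mock, DOX).

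Motifs made of the telomere repeat stood out by how often they were inside peaks. The intronic sequence held 68 non-template and 101 template motifs with 4 GGG runs spaced by TTA, and several of these share a repeat array. In GFP mock 10.3% (4.24 to 20.1) of the non-template and 22.8% (15.0 to 32.2) of the template motifs of this kind were inside peaks, and in GFP DOX 10.3% (4.24 to 20.1) and 20.8% (13.4 to 30). In Cre mock the shares were 23.5% (14.1 to 35.4) and 27.7% (19.3 to 37.5), and in Cre DOX 23.5% (14.1 to 35.4) and 31.7% (22.8 to 41.7). In every list the template share was the higher, with overlapping intervals between strands, and both exceeded the share of other motifs, which did not pass 3.03% in any list. As members, peaks with this repeat were few: 4 non-template and 6 template in GFP mock, 3 and 6 in GFP DOX, and 7 and 7 in both Cre mock and Cre DOX. All 6 template members of GFP mock and all 7 non-template members of Cre mock had an overlapping peak in Cre DOX, and 4 of the 7 non-template and 1 of the 7 template members of Cre mock had none in GFP mock, numbers too small to set against the 75.7% of all Cre mock intronic peaks absent there. Reads of a tandem repeat can align to several places, and their part in these values was not tested.

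Around the peaks, the strands were arranged differently along the gene. Relative to all intronic sequence, the density of template motifs within 1 kb before the centre of an intronic peak, in the direction of transcription, was 2.36 times the average in GFP mock and 1.68 in GFP DOX, and 1.81 in Cre mock and 1.99 in Cre DOX, while after the centre it was 1.42, 1.06, 1.19 and 1.13. Non-template motifs showed the mirror arrangement, at 1.51, 1.25, 1.36 and 1.12 before the centre and 2.22, 1.70, 1.78 and 1.74 after it. The share of motifs on the non-template strand was therefore 29.8% to 36.2% before the centre and 53.1% to 54.8% after it. All intronic peaks entered this profile, with and without a predicted G4. At 2 to 3 kb from the centre the density was 1.07 to 1.28 times the average on the non-template and 1.16 to 1.22 on the template strand.

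**Figure D3:**
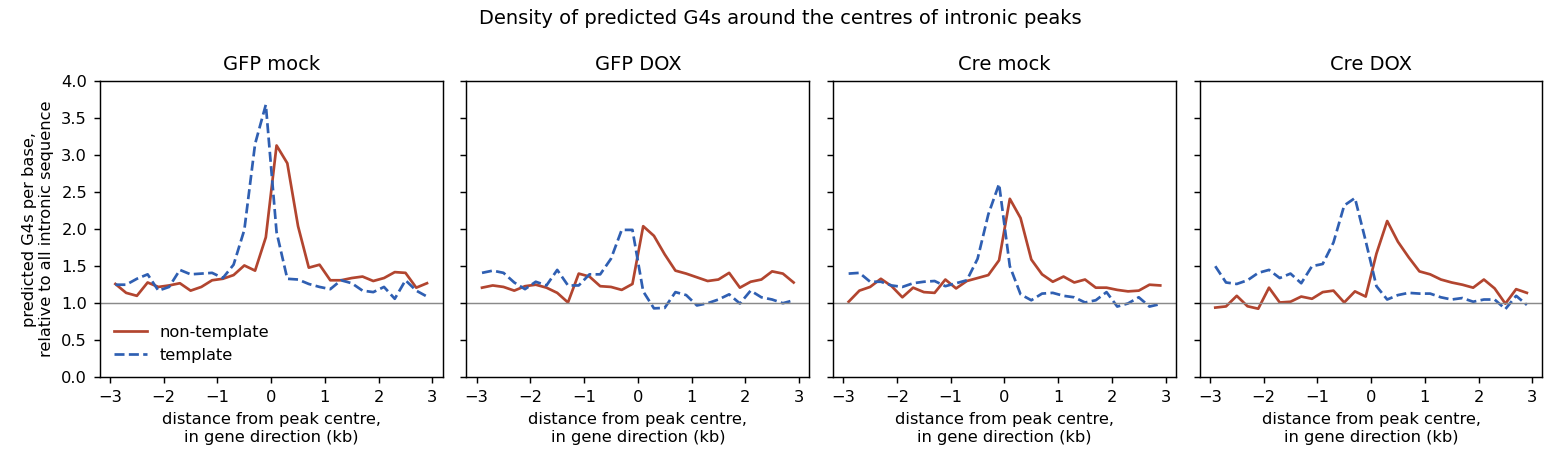
Density of predicted G4s in 200-bp bins around the centres of intronic peaks, as a multiple of the density over all intronic sequence (vertical axis), against distance from the peak centre in the direction of transcription (horizontal axis, kb), for the non-template (solid) and template (dashed) strand, one panel per list. Template motifs peak just before the centre and non-template motifs just after it in all 4 panels.

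Read along the strand that holds the guanine runs, both arrangements are the same: the motif lay on the 3′ side of the peak centre more often than on the 5′ side. Over all predicted G4s within 1 kb of intronic peak centres, 59.0% (57.7 to 60.2, n = 6073) of non-template and 62.4% (61.3 to 63.5, n = 8112) of template motifs lay on the 3′ side in GFP mock. The shares were 56.4% and 61.1% in GFP DOX, 55.8% and 60.2% in Cre mock, and 60.1% and 63.7% in Cre DOX. The template share was the higher in all 4 lists. Intergenic peaks, which have no gene direction, had 66.5% (GFP mock) and 64.9% (GFP DOX), and 64.7% (Cre mock) and 68.7% (Cre DOX), of their motifs on the 3′ side, higher than either class of intronic motif in each list, and plus-strand and minus-strand motifs gave nearly the same value (66.2% and 66.8% in GFP mock). The arrangement was thus also present where no gene gives a direction.

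**Figure D4:**
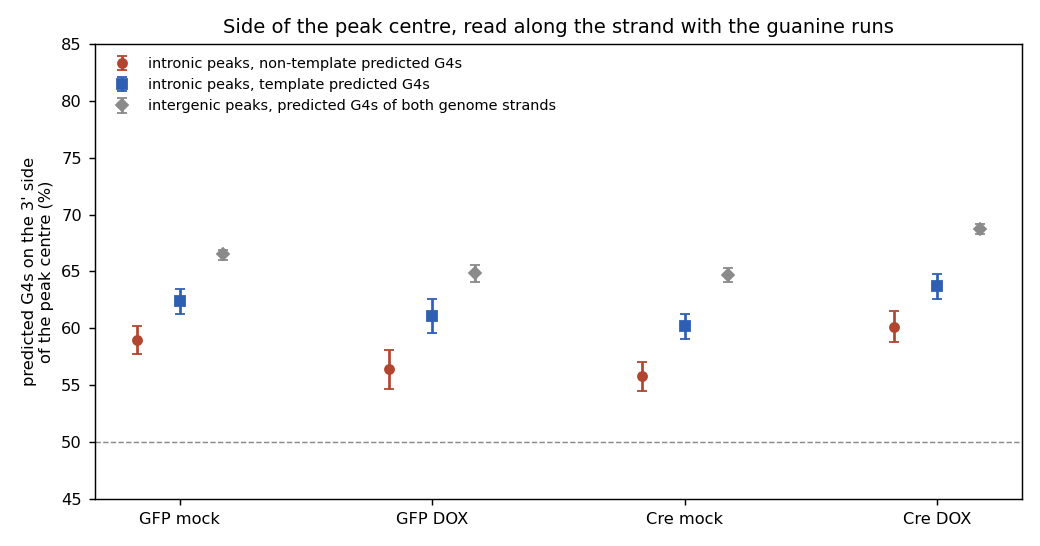
Share of predicted G4s within 1 kb of a peak centre that lie on its 3′ side, read along the strand with the guanine runs (vertical axis, percent, not starting at 0), for non-template and template motifs of intronic peaks and for intergenic peaks, with exact 95% intervals. All points lie above 50% (dashed line), with intergenic peaks highest in every list.

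Inside the members the motif also lay more often in the 3′ part, with an interval that included 50% in the non-template members of Cre mock. Among members with exactly 1 motif, the motif lay in the 3′ part of the peak in 56.9% (52.5 to 61.2, n = 524) of non-template and 61.6% (57.5 to 65.7, n = 563) of template members of GFP mock. The values were 58.4% and 57.9% in GFP DOX, 53.5% (49.5 to 57.5) and 59.6% in Cre mock, and 62.9% and 63.4% in Cre DOX.

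Guanine exceeded cytosine on the strand with the motif also outside the motif itself. The GC skew, the difference of guanine and cytosine over their sum on the non-template strand, had a median outside the motifs of 0.16 in non-template and -0.19 in template members of GFP mock, 0.10 and -0.13 in GFP DOX, 0.13 and -0.13 in Cre mock, and 0.083 and -0.062 in Cre DOX. It was above 0 in 83.2% of the non-template and 15.3% of the template members of GFP mock. Intronic peaks without a predicted G4 had median skews of 0.014, 0.026, 0.027 and 0.023 over the whole peak, next to 0.0156 for all the intronic sequence.

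Members of the classes differed little in strength. The deposited score, which is 10 times the -log10 q value of the peak, had a median of 19 in both single-strand classes of GFP mock, 16 in both of GFP DOX, 17 in both of Cre DOX, and 18 in non-template against 19 in template members of Cre mock. Intronic peaks without a predicted G4 had medians of 18, 16, 18 and 17 in GFP cells (mock, DOX) and Cre cells (mock, DOX). In the top decile of scores of the list were 8.74% (6.90 to 10.9) of non-template and 11.9% (9.94 to 14.1) of template members of Cre mock, and 12.7% and 14.7% of those of GFP mock. In the doxycycline lists the order was the other way, at 13.1% and 11.3% in Cre DOX and 12.7% and 12.4% in GFP DOX, with overlapping intervals. The median width of non-template and template members was 400 and 347 bp in GFP mock and 548 and 557 bp in Cre DOX, and members with motifs on both strands were the widest, with medians of 753 to 1042 bp. Of template members 34.3% held more than 1 template motif in GFP mock, against 25.9% of non-template members with more than 1 non-template motif.

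Most intronic peaks of the mock lists had no counterpart after doxycycline, with or without guanine runs, and are called lost here as a name for the direction of the comparison. Of GFP mock intronic peaks 76.3% had no overlapping peak in GFP DOX, and of Cre mock intronic peaks 68.1% had none in Cre DOX. In GFP cells 70.4% (66.9 to 73.8) of non-template, 74.0% (70.9 to 76.9) of template and 76.7% (76.1 to 77.4) of G4-free intronic peaks were lost. The difference between strands was -3.54 percentage points (Newcombe interval -8.01 to 0.907), within counting error. In Cre cells 69.4% (66.1 to 72.5) of non-template, 69.7% (66.7 to 72.6) of template and 68.0% (67.4 to 68.7) of G4-free peaks were lost, and the strands differed by -0.295 points (-4.57 to 3.95). Over all widths, members with guanine runs on both strands were lost least, at 43.6% (27.8 to 60.4) in GFP and 44.4% (31.9 to 57.5) in Cre cells, and these were also the widest members. The part of width in this difference was not tested.

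Many peaks of the doxycycline lists were in turn absent from mock. Of GFP DOX intronic peaks 66.6% had no overlapping peak in GFP mock, and of Cre DOX intronic peaks 68.6% had none in Cre mock. For GFP DOX these were 54.9% (49.7 to 60) of non-template, 54.8% (49.8 to 59.8) of template and 67.6% (66.7 to 68.5) of G4-free peaks. For Cre DOX they were 56.5% (53 to 60) of non-template, 60.8% (57.8 to 63.8) of template and 69.8% (69.1 to 70.5) of G4-free peaks. With guanine runs on 1 strand, peaks were absent less often than G4-free ones in both, with differences of -12.8 (-16.4 to -9.21) and -10.9 points (-13.2 to -8.54), and the strands differed by 0.0426 (-6.91 to 6.98) and -4.29 points (-8.82 to 0.248).

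Among the highest-scoring members of Cre mock the strands differed. Among members with scores of 25 and above 46.8% (39.4 to 54.2, n = 186) of non-template and 60.6% (54.4 to 66.5, n = 264) of template members were lost, and in the top decile 36.1% and 57.8%, a difference of -21.6 points (-34.9 to -6.96). With only top-decile peaks of Cre DOX counted as counterparts, 63.9% and 79.3% were lost (-15.4 points, -28.6 to -2.36). The gap was not particular to the direction: of Cre DOX members with scores of 23 and above, 28.2% (22.5 to 34.4, n = 234) of non-template and 40.8% (35.0 to 46.8, n = 282) of template members had no overlapping peak in Cre mock. Among Cre mock members with scores of 16 to 18 the order was the other way, with 77.2% (70.4 to 83.1) of non-template and 67.3% (60.3 to 73.8) of template members lost. In GFP mock 52.0% (44.8 to 59.2) of non-template and 57.4% (50.9 to 63.7) of template members with scores of 25 and above were lost, and in its top decile the difference was -6.83 points (-19.7 to 6.55). By width, among GFP mock members at least 421 bp wide 55.0% of non-template and 60.4% of template members were lost, and among Cre mock members at least 486 bp wide 51.9% and 49.3%. Of Cre DOX members 63.2% (57 to 69.2) and 71.7% (66.1 to 76.8) of those 426 to 728 bp wide, and 32.1% (26.6 to 38) and 39.2% (34.3 to 44.3) of wider ones, had no overlapping peak in Cre mock. In narrower ones the order was the other way. The shares were 80.7% (72.1 to 87.7) and 79.6% (72.7 to 85.5) at 213 to 249 bp, and 71.6% (63.8 to 78.6) and 69.7% (63.0 to 75.8) at 250 to 425 bp. The intervals of the strands overlapped in each of these width strata of Cre DOX. These strata were many and no value was adjusted for their number.

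Comparing the mock lists, 75.7% of Cre mock intronic peaks had no overlap in GFP mock and 67.9% of GFP mock intronic peaks had none in Cre mock. Single-strand members were absent less often than that in both directions. Of Cre mock members 66.9% (63.5 to 70.1) of the non-template and 61.1% (57.9 to 64.2) of the template class were absent from GFP mock, against 77.0% (76.4 to 77.6) of G4-free peaks. The difference between strands was 5.78 points (1.32 to 10.2). It turned among members in the top decile of scores, where 27.8% and 29.3% were absent (-1.53 points, -14.2 to 12). Its interval included 0 also with equal numbers of peaks (4.02, -1.6 to 9.55), at a -log10 q of at least 2 (2.80, -4.1 to 9.65), with an overlap of at least 50% of the peak (3.11, -0.702 to 6.88) and with top-decile peaks of both lists (5.94, -8.54 to 19.8). With mostly masked motifs left out it was 12.8 points (3.99 to 21.5). In the other direction 59.0% (55.3 to 62.6) of non-template and 60.1% (56.7 to 63.4) of template members of GFP mock were absent from Cre mock, against 68.9% of G4-free peaks, a difference of -1.11 points (-5.99 to 3.76).

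Between the doxycycline lists non-template members were absent less often than template members in both directions, the reverse of Cre mock against GFP mock. Of Cre DOX intronic peaks 76.0% had no overlap in GFP DOX, and of GFP DOX intronic peaks 53.4% had none in Cre DOX. Absent from GFP DOX were 67% (63.6 to 70.3) of non-template and 72.1% (69.3 to 74.8) of template members of Cre DOX, a difference of -5.12 points (-9.38 to -0.883), against 76.9% of G4-free peaks. Absent from Cre DOX were 58.8% (53.7 to 63.8) of non-template and 66.3% (61.4 to 70.9) of template members of GFP DOX, a difference of -7.41 points (-14.1 to -0.631). In this last comparison members were absent more often than the 52.8% of G4-free peaks, by 9.86 points (6.29 to 13.3). The alternatives listed for the mock lists were not run on these 2 comparisons.

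**Figure D5:**
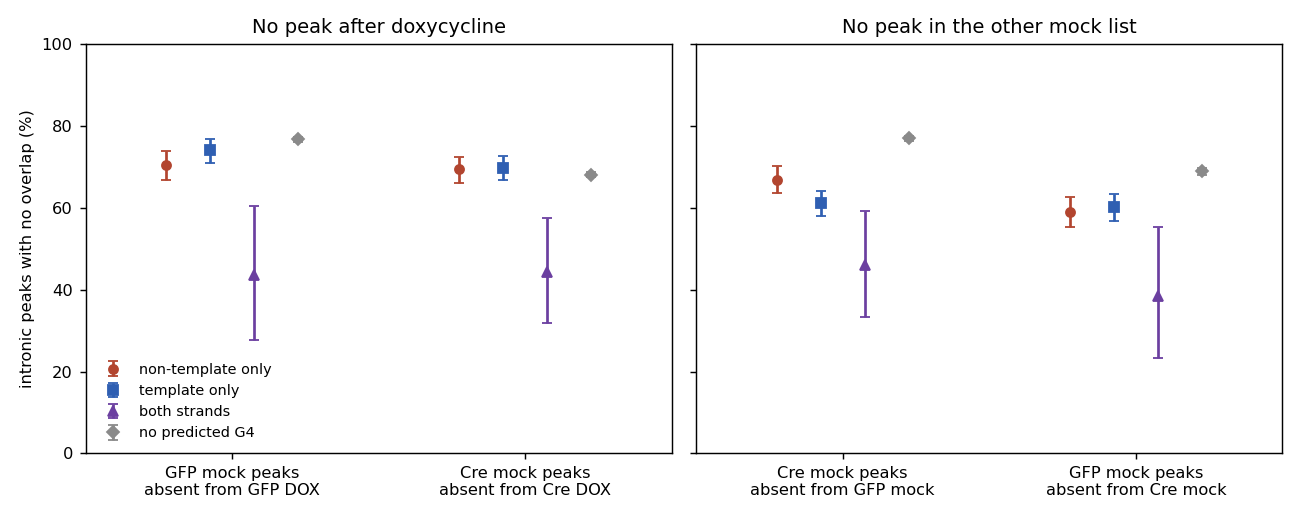
Share of intronic peaks with no overlapping peak in another list (vertical axis, percent) for peaks with guanine runs on the non-template strand, the template strand or both, and for peaks without a predicted G4, with exact 95% intervals. Left, mock peaks absent after doxycycline; right, mock peaks absent from the other mock list. The single-strand classes lie within 4 points of each other except for Cre mock peaks absent from GFP mock (66.9% and 61.1%), and peaks with runs on both strands are absent least.

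Merging overlapping members of the 4 lists gave 4829 loci in 3143 genes, of which 2069 had guanine runs only on the non-template strand, 2574 only on the template strand and 186 on both strands. A peak was present in only 1 list at 2573 loci and in all 4 at 570. The non-template share of single-strand loci was 44.2% (42.2 to 46.2) at loci with a peak in 1 list, 44.9% (41.8 to 48.0) in 2, 43.2% (39.1 to 47.4) in 3 and 47.3% (42.9 to 51.8) in all 4. Over the combinations of lists it ran from 39.1% (32.6 to 45.9, n = 220) at loci with a peak in all but GFP DOX to 52.7% (43.7 to 61.6, n = 129) at loci with a peak in all but GFP mock. Loci with a peak only in Cre mock had 46.3% (42.9 to 49.8), those only in GFP mock 45.0% (41.3 to 48.8), those only in GFP DOX 45.7% (39.2 to 52.3) and those only in Cre DOX 40.6% (37.1 to 44.2). A member of the same class was found in all 4 lists at 33 non-template, 33 template and 16 loci with runs on both strands.

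Among the non-template loci shared by all lists, Mid1 had the highest scores. Mid1 encodes a microtubule-associated ubiquitin ligase, and in the mouse the gene crosses the pseudoautosomal boundary, so reads from X and Y copies can share sequence there. Its locus (ENSMUSG00000035299.16, plus strand, chrX:169993383-169995028, 14.8 kb from the nearest upstream start) scored 494 in GFP mock and 621 in GFP DOX, and 542 in Cre mock and 562 in Cre DOX, at or above the 99.95th percentile of scores in every list. The highest of its scores was the one after doxycycline in GFP cells.

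Map2k6, a kinase that activates p38, had a locus with 3 non-template motifs and a telomere repeat at chr11:110422135-110422485, 23.1 kb from the start, with scores of 245, 112, 181 and 154 in GFP cells (mock, DOX) and Cre cells (mock, DOX). Here both mock lists scored above their doxycycline lists. Gm47283, a predicted gene on the Y chromosome, had a telomere-repeat locus at chrY:90810157-90813857 with scores of 101, 116, 176 and 210, higher in both Cre lists than in both GFP lists. Cnga2, a subunit of the olfactory cyclic nucleotide-gated channel, scored 113, 113, 157 and 59 at chrX:71995501-71995963. Atg4a, a protease of autophagy, scored 102, 60, 95 and 83 over a locus at chrX:141149417-141155206 that was up to 5683 bp wide in 1 list. Of these loci 3 have coordinates on the X chromosome and 1 on the Y chromosome.

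Among the template loci shared by all lists, Cbr3, which encodes a carbonyl reductase, scored 256 in GFP mock and 312 in GFP DOX, and 331 in Cre mock and 370 in Cre DOX at chr16:93686711-93686926, around an almost unbroken run of guanine on the template strand. Il31ra, a subunit of the interleukin-31 receptor, scored 344, 339, 230 and 327 at chr13:112578061-112578975. Lama1, the laminin alpha 1 chain of basement membranes, scored 185, 207, 210 and 248 at chr17:67741235-67741575, where 7 template motifs lay in a peak that was 86.5% repeat-masked. Cbr3 and Lama1 scored higher in each doxycycline list than in the mock list of the same virus, and Il31ra did so in Cre cells.

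Nedd4l, a ubiquitin ligase of membrane channels, scored 182, 180, 273 and 258, higher in both Cre lists. Ppp1r9a, which encodes the actin-binding protein neurabin, scored 195, 158, 137 and 131 at chr6:4923703-4924429, where 13 template motifs were found. Of the 12 shared loci that the rule for naming chose, 5 held a telomere repeat: Map2k6, Gm47283, Lama1, Nedd4l and Ppp1r9a. Scores are not normalised between lists, so each describes the peak within its own library.

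At the locus with guanine runs on both strands, Glipr1l1, a protein of the testis, scored 105, 88, 156 and 46 at chr10:112063930-112068475, and 96.2% of that peak was repeat-masked. The score was lowest in Cre DOX and highest in Cre mock.

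The strongest members found in 1 mock list and in no other list had scores of 40 to 76, below most of those of the shared loci. They are shown as the highest-scoring members of 1 mock list alone. In 7 of these 12 motifs the bases other than guanine are all adenine, against 1 of the 13 motifs chosen at shared loci and 22.8% of all intronic motifs, and motifs of peaks seen only after doxycycline were not compared. Motifs inside mock peaks are the closer comparison. Of 3534 motifs inside GFP mock peaks 440 non-template and 882 template ones were of this kind. Of 4309 inside Cre mock peaks 448 and 813 were. Non-template motifs, the first 3 from peaks seen only in Cre mock and the others from peaks seen only in GFP mock:
Mthfd1, chr12:76318423-76318442, plus strand: GGGaGGGaGGGaggagaGGG
Pemt, chr11:59975282-59975301, minus strand: GGGGtcGGGtGGGGGtGGGG
Spag17, chr3:100005310-100005328, plus strand: GGGaGGGGagaGGGaGGGG
Cyp2j11, chr4:96341488-96341508, minus strand: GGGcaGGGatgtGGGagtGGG
A4galt, chr15:83237107-83237129, minus strand: GGGGaaaaGGGaGGGagagaGGG
Adgre1, chr17:57462502-57462524, plus strand: GGGagaGGGaaaGGGGGaGGGGG

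Template motifs in the same order of lists:
Chrna5, chr9:54997630-54997650, minus strand: GGGagaGGGagaGGGagaGGG
Sept9, chr11:117336891-117336911, minus strand: GGGagaGGGagaGGGagaGGG
Abca5, chr11:110304556-110304571, plus strand: GGGGaGGGaGGGaGGG
Itgbl1, chr14:123894440-123894466, minus strand: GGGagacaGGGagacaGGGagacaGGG
Klf13, chr7:63909174-63909206, plus strand: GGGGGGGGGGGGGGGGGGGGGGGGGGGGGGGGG
Slc39a12, chr2:14431957-14431978, minus strand: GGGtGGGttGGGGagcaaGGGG

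In Cre mock alone, 387 non-template and 448 template members overlapped no other list, 47% (43.5 to 50.4) and 46.0% (42.8 to 49.2) of their class. Of all its intronic peaks 54.3% did so, and of G4-free peaks 55.2%. The strongest non-template ones lay in Mthfd1, an enzyme of folate metabolism (score 64), Pemt, which makes phosphatidylcholine (59), and Spag17, a protein of motile cilia (40). The strongest template ones lay in Chrna5, a nicotinic receptor subunit (56), Sept9, a septin of the cytoskeleton (48), and Abca5, a membrane transporter (44). In GFP mock alone there were 313 non-template and 382 template members, 44.3% and 44.6% of their class against 49.2% of all intronic peaks. They were led by Cyp2j11, a cytochrome P450 (54), A4galt, a glycosphingolipid galactosyltransferase (51), and Adgre1, which encodes the macrophage antigen F4/80 (47), and by Itgbl1, an integrin beta-like protein (76), Klf13, a zinc finger factor (73), and Slc39a12, a zinc transporter (56).

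Members also occurred in 1 doxycycline list and no other, and in none of the 4 lists were single-strand members found alone more often than all intronic peaks. In GFP DOX alone, the shortest of the 4 lists, there were 107 non-template and 127 template members, 28.2% and 31.5% of their class against 33.2% of all intronic peaks, with the highest scores in Epb41l4a (49) and Gng7 (33) on the non-template and Mllt3 (43) and Zfp407 (40) on the template strand. In Cre DOX alone there were 308 and 451, 38.9% and 42.9% against 52.9% of all, led by Gulp1 (38) and Thsd7a (37) on the non-template and Fhod3 (60) and Brinp2 (49) on the template strand. Gng7 is a G protein gamma subunit, Mllt3 a chromatin reader of transcription elongation complexes, Gulp1 an adaptor of phagocytosis and Fhod3 a formin of the actin cytoskeleton.

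Members were spread thinly over genes: 2167 of 3143 genes (68.9%) had 1 locus and 95 had 5 or more. The most non-template loci were in Rbfox3, a neuronal splicing factor of 422 kb, with 9 non-template against 5 template loci, followed by Dnah7c, an axonemal dynein heavy chain, with 7 against 1, and Gramd4 with 6 against 0. Their introns held 70, 82 and 15 non-template and 102, 33 and 12 template motifs. The most template loci were in Gse1, with 9 template against 5 non-template loci, Sept9 with 9 against 5, and Rtl4, a retrotransposon-derived gene, with 8 against 3. Template members of Gse1 numbered 4 in GFP mock, 6 in Cre mock and 0 in both doxycycline lists, whereas those of Sept9 numbered 2 in GFP mock and 5 in GFP DOX, and 4 in Cre mock and 3 in Cre DOX. Gene length and motif number differ widely between these genes.

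Grouped by function, no gene list had a strand share apart from that of its own motifs by more than counting error. Fibroblast matrix and adhesion genes had 20 non-template and 22 template loci (47.6%, 32.0 to 63.6) with 45.7% of their motifs on the non-template strand. Cytoskeleton and motility genes had 33 and 37 (47.1%, 35.1 to 59.4) with 43.1% of motifs, growth factor signalling genes 17 and 29 (37.0%, 23.2 to 52.5) with 41.4%, neuronal genes 28 and 35 (44.4%, 31.9 to 57.5) with 44.4%, and blood and immune genes 6 and 5 (54.5%, 23.4 to 83.3) with 42.8%.

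The lists of genes differed more in how many motifs were inside peaks. In Cre mock 7.64% of the motifs of fibroblast matrix genes and 6.41% of those of cytoskeleton genes were inside peaks, against 3.37% of growth factor signalling, 2.63% of neuronal and 1.32% of blood and immune genes, and 2.81% of all. In GFP mock the same shares were 3.53%, 3.17%, 2.66%, 2.38% and 1.32%, next to 2.30% of all. In GFP DOX they were 3.41%, 2.87%, 0.940%, 1.11% and 0.439%, next to 1.27%. In Cre DOX they were 4.11%, 3.24%, 3.92%, 1.77% and 3.07%, next to 2.44%. The order of the gene lists was thus the same in both mock lists and differed in both doxycycline lists: neuronal genes lay above growth factor genes in GFP DOX, and blood and immune genes above all motifs in Cre DOX. Blood and immune genes had only 5 members in Cre DOX. Motifs inside one peak were counted as separate, and no interval was computed for these shares. Members of the fibroblast matrix genes numbered 4 non-template and 10 template in GFP mock and 12 and 11 in Cre mock, those of the cytoskeleton genes 5 and 11 and then 19 and 14, those of growth factor signalling genes 10 and 12 and then 6 and 15, those of neuronal genes 12 and 14 and then 11 and 11, and those of blood and immune genes 3 and 5 and then 4 and 1. In the doxycycline lists no gene list had more than 8 non-template or 12 template members. These counts are small, the non-template share of all members was 45.2% in GFP mock and 45.8% in Cre mock, and no difference between lists was tested.

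Examples show how these loci varied. In Ror2, a receptor of Wnt5a, a non-template locus at chr13:53269778-53269993 scored 161 in Cre mock and 106 in Cre DOX and had no peak in either GFP list. In Jak1, a kinase of cytokine receptors, a non-template locus at chr4:101231226-101231889 scored 110, 74, 87 and 28 in GFP cells (mock, DOX) and Cre cells (mock, DOX). Both loci thus scored lower in the doxycycline list than in the mock list of the same virus wherever a peak was called.

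In Ebf1, a factor of B cell development, a template locus at chr11:44727831-44728656 scored 127, 41, 138 and 37, lower in both doxycycline lists. In Sept9 a non-template locus at chr11:117286890-117288171 was a member with scores of 17 in Cre mock and 41 in Cre DOX, with a peak that was not a member in GFP mock and none in GFP DOX. In Shank2, a scaffold of excitatory synapses, a template locus at chr7:144319991-144320281 scored 41 in Cre mock and had no peak in the other lists. In Col5a2, a chain of fibrillar collagen, a template locus at chr1:45416110-45416504 scored 32 as a member in GFP mock, and the other 3 lists had a peak there that was not a member.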

How the data were processed

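The deposited peak lists were broad-peak files, 1 per DRIP library, made by the authors with nf-core/chipseq (alignment with BWA to mm10, peak calling with MACS2). The command named a narrow-peak option although the files have the broad format, and use of the inputs as controls was not stated. By their format, which has no header line, the deposited columns hold a score, a fold ratio, a -log10 p-value and a -log10 q-value. The deposited score equalled 10 times -log10 q, cut to a whole number, in 99.9962% of peaks. Read depth is unknown, so its effect on the lists could not be measured.

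Peaks, genes (GENCODE M21) and sequence (RefSeq copy of GRCm38.p6, soft-masked) were joined in Python 3.11.15 with numpy 2.4.6, pandas 2.3.3 and scipy 1.17.1. A predicted G4 was found by regular expression on both strands, without overlaps, and non-template means guanine runs on the strand of the gene. Distances run to the nearest upstream start of the gene that holds the peak. Lists were compared by overlap of at least 1 bp with a peak of any score. The code was tested on simulated data.

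Members and gene lists were chosen with earlier results of these data known. Named loci followed a written rule: the 5 loci per strand class, and the 2 loci with both strands, that had a member of that class in all 4 lists and the highest lowest score percentile; the 3 strongest members per class found only in each mock list and the 2 in each doxycycline list; the 3 genes per class with most loci; and examples among the 4 strongest of each gene list. One locus chosen by this rule is not reported here. Alternatives varied the motif definition, score threshold, repeat masking, distances, antisense genes, peak number and width, and overlap. No test was run between conditions.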

Additional observations from a re-analysis of the deposited data

How the results depend on the processing

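No paired analysis was run, and each condition had 1 library. The value stayed within the interval of the reported one in 30 of 40 alternatives for the non-template share of members, 32 of 44 for the ratio of motifs inside peaks, 31 of 36 for the difference in median score, and 18 of 22 each for the differences in loss and in absence from the other mock list. Small differences whose interval included 0 did change sign within it, such as that in loss, which was 0.391 in GFP and 0.708 in Cre cells with G4Hunter, and that in absence of GFP mock members, which was 2.76 with peaks of 500 bp. The 30 of 40 for the share of members do not take in the share of the sequence itself, which moved from 43.1% to 48.0% with G4Hunter. There the intervals of GFP DOX (49.8%) and Cre mock (48.1%) no longer lay above it but included it, and those of GFP mock (45.7%, 44.1 to 47.4) and Cre DOX (46.2%, 44.5 to 47.8) lay below it. The cause of the other moves was not tested, except that counts fall by construction when peaks or motifs are left out. In the values below the order is GFP cells (mock, DOX) and Cre cells (mock, DOX) where 4 are given. Members numbered 3964, 2222, 4786 and 4062 with G4Hunter, 224, 103, 195 and 243 in the top decile of scores, 750, 255, 858 and 745 at a -log10 q of at least 2, 336, 257, 440 and 343 without mostly masked motifs, and 1014, 433, 1130 and 1263 at 5 kb from starts and ends. With loops of up to 12 bases they numbered 1296 in GFP DOX and 2851 in Cre mock, and with equal numbers of peaks 1207 for Cre mock and 1042 for Cre DOX. The non-template share was 48.8% in Cre mock and 46.5% in Cre DOX with loops of up to 12 bases, against 45.1% of such motifs. It was 55.4%, 54.8%, 57.7% and 51.5% without mostly masked motifs, against 51.8%. In the top decile it was 46.6% in Cre DOX, 41.7% in GFP mock and 38.3% in Cre mock, where it turned from above to below the 43.1% of all motifs. The ratio of motifs inside peaks was 1.2 in GFP DOX with G4Hunter, 1.01 in Cre mock, 0.806 in GFP mock and 1.19 in Cre DOX in the top decile, and 0.919 in GFP mock and 1.15 in Cre DOX at the stricter q. It was 1.15 in GFP mock and 1.31 in Cre mock without mostly masked motifs, 1.13 in GFP DOX with peaks of 500 bp (1.02 for Cre mock, 0.972 for Cre DOX), and 1.12 in GFP mock with close motifs counted once. The difference in median score was -2.00, -5.0, 3.00 and -2.00 in the top decile and 2.00 in Cre DOX without mostly masked motifs. The difference in loss in Cre cells was -21.6 points in the top decile and -6.49 at the stricter q, and with top-decile peaks of both lists it was 3.17 in GFP and -15.4 in Cre cells. The difference in absence of Cre mock members from GFP mock turned to -1.53 points in the top decile and was 12.8 without mostly masked motifs, and that of GFP mock members from Cre mock was -7.19 without mostly masked motifs and 7.30 with top-decile peaks of both lists. Depth is unknown, so a peak absent from a list may have been missed there.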
